A study of Mus musculus with 6 samples.

Results

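A set of 9 genes of pericellular proteolysis was followed through the immune cells of the tumor-bearing mouse brain: the matrix metalloproteinases Mmp8, Mmp9, Mmp12 and Mmp14, their inhibitors Timp1 and Timp2, the urokinase plasminogen activator Plau, its receptor Plaur, and the membrane-bound disintegrin and metalloproteinase Adam8. They were taken by gene symbol and make up 9 of the 31053 genes counted. The question was which cells sorted from the tumor-bearing brain hold transcripts for enzymes that can cut matrix, and which hold transcripts for the inhibitors and receptors that limit or place that activity.

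Matrix metalloproteinases are zinc enzymes made as inactive precursors, and together they can cut collagens, gelatin, elastin and other matrix proteins. Mmp8 (a collagenase) and Mmp9 (a gelatinase) are stored in neutrophil granules, Mmp12 is the macrophage elastase, and Mmp14 sits in the cell membrane, where it cuts matrix directly and activates pro-Mmp2 with the help of Timp2. Timp1 and Timp2 are secreted inhibitors that bind the active enzymes. Urokinase, held at the cell surface by Plaur, turns plasminogen into plasmin, which dissolves fibrin and activates several of the metalloproteinases. In the brain, microglia are the resident macrophages, and monocytes, dendritic cells and neutrophils enter from the blood.

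The cells came from 6 female SCID mice, 8 weeks old at implantation, a strain that lacks T and B lymphocytes but keeps its myeloid and NK cells. Each mouse received 50000 cells of U87, an established human glioma line, in the brain: in 3 mice the cells carried the empty pcDNA vector and the brain was taken at 6 weeks, and in the other 3 they expressed IL-33, a cytokine of the IL-1 family, and the brain was taken at 3 weeks. The hemisphere that held the tumor was dissociated, cleared on a Percoll gradient and sorted for CD45+ cells, and 10x Chromium 3′ v2 libraries were made. IL-33 status and time after implantation cannot be told apart in this design, and no sample label ties the 6 barcode suffixes of the matrix to mice, so all cells were described as 1 pooled sample, with no comparison of the tumors and no p-value.

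By the GENCODE annotation of GRCm38, all 9 genes are protein-coding. Mmp12 (chr9:7344381-7369499, plus strand) and Mmp8 (chr9:7558456-7568485, plus strand) lie in the metalloproteinase cluster of chromosome 9, with 188957 bp between the end of the one and the start of the other. Plaur (chr7:24462484-24475968, plus strand) and Adam8 (chr7:139978932-139992562, minus strand) share chromosome 7, and Plau (chr14:20836660-20843385, plus strand) and Mmp14 (chr14:54431612-54445364, plus strand) share chromosome 14. Mmp9 is at chr2:164940780-164955850 (plus strand), Timp1 at chrX:20870166-20874735 (plus strand) and Timp2 at chr11:118301069-118355740 (minus strand). Timp1 lies opposite Syn1, a neuronal gene with 1 UMI in the whole matrix, and Mmp12 opposite Mmp1b, which had 0, while Cep295nl, which overlaps Timp2 on the same strand, had 44.

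Promoter windows, the 250 bases before a start site in the RefSeq table of GRCm38.p6, were found for 7 of the 9 genes (8 starts), but not for Mmp9 or Plau. They were searched for 2 motifs of factors known from macrophages, the AP-1 site TGANTCA, which reads the same on both strands, and the PU.1 core GAGGAAG on either strand; these letters do not overlap each other in the windows printed. An AP-1 match stood in 2 of the 8 windows and in 6.75% of all 32851 windows, and a PU.1 match in 3 of the 8 and in 10.6% of all. The windows of Mmp12, Plaur and Adam8 are shown because the levels of these genes were highest in the same group of cells, with matches in capitals.
Mmp12, upstream start (chr9:7344147-7344396, plus strand): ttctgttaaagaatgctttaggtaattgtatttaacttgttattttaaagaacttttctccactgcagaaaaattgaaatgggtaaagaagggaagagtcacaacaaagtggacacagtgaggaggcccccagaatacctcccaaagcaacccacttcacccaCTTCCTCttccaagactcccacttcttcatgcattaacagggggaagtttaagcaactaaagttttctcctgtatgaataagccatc
Mmp12, downstream start (chr9:7347124-7347373, plus strand): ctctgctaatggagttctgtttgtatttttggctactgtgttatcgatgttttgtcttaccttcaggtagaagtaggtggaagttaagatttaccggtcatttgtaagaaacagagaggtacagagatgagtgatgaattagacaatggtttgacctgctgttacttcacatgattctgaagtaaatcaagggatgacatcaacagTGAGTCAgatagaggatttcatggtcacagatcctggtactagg
Plaur (chr7:24462233-24462482, plus strand): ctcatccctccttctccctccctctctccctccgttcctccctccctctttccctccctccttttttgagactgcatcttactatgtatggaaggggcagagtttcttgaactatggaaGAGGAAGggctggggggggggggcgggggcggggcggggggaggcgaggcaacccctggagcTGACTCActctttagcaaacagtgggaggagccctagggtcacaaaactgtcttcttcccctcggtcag
Adam8 (chr7:139992563-139992812, minus strand): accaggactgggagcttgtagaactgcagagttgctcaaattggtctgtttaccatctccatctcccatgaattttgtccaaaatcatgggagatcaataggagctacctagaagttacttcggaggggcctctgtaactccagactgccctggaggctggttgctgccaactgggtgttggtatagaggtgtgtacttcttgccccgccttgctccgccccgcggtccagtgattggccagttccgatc
The match at the upstream Mmp12 start is the PU.1 core on the reverse strand, 87 bases before the start, and the match at its downstream start is an AP-1 site, 44 bases before it. The Plaur window holds both, a PU.1 match at 131 bases and an AP-1 match at 69 bases before the start. Adam8 has neither, so no motif of the pair is shared by the 3 genes; a match describes letters only.

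The matrix held 40411 barcodes and 105560763 UMIs (unique molecular identifiers, each standing for 1 captured transcript). A suffix held 2879 to 10217 barcodes, and its median barcode 1536 to 3503 UMIs. A barcode was kept where it held more than 200 genes, no more than 2500, and mitochondrial UMIs below 5%, which left 38751 cells. Many barcode sequences occurred under several suffixes: 3890 sequences did, and the 14722 barcodes that carry them are 36.4% of all, from 20.7% to 51.0% per suffix, with 490 sequences present in all 6. In these 490, the UMI total under suffix 1 was 0.757 of that under suffix 2 at the median, with quartiles of 0.742 and 0.771, and the other suffixes showed as narrow a spread around their own ratio. The suffixes are therefore not independent sets of cells. Ranges over suffixes, and the same direction in several suffixes, are given below as descriptions and not as repeats. Values are given for all cells and, with some of the results, for the 24262 cells whose sequence occurred under 1 suffix only (called unshared below).

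Cells were grouped by marker genes that include none of the 9. A cell with at least 3 markers of another lineage, and under 0.5% of its UMIs on 6 microglial genes, was placed in that lineage. Of the rest, cells with at least 4 of the 6 microglial genes were called microglia-like (33565 cells, 86.6% of those kept), and those with fewer formed a low-marker group of 4195 cells. The other groups were small: 207 classical monocyte-like, 197 choroid plexus-like, 150 NK-like, 74 monocyte-derived dendritic-like and 63 granulocyte-like cells, 23 cells led by Ms4a7 that were not named, 35 with markers of 2 lineages, and 242 with another lineage's markers but more microglial RNA than the limit. The leading genes were Camp, Ngp and Lcn2 in granulocyte-like cells, F13a1, Plac8 and Sirpb1c in monocyte-like cells, and Cd209d, Cd209a and Cd209e in dendritic-like cells. Camp, Ngp, Lcn2, Plac8 and Cd209a are among the markers that placed these cells, so their rank lends the names no support. F13a1 is on the marker list of the 23 unnamed cells, not on that of monocytes. Choroid plexus is an epithelium, which a sort for CD45+ cells should lack. The T cell genes Cd3d, Cd3e, Cd3g and Trac, which SCID mice should lack, had 43 to 152 UMIs each in the matrix, the endothelial gene Cldn5 had 1, and the leading genes of the 35 cells with markers of 2 lineages included the immunoglobulin genes Igkc and Iglc3. Only 3 suffixes held at least 20 monocyte-like cells, 2 held 20 dendritic-like cells and 1 held 20 granulocyte-like cells.

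Levels are given as CPM, the UMIs of a gene per 1000000 UMIs of the group, with exact Poisson 95% intervals, and shares of cells have exact binomial 95% intervals; both cover counting error only. Since 3′ UMIs are not scaled to transcript length, levels were compared between groups of cells for 1 gene, and not between genes. Microglia-like cells held 83.6% of all UMIs of the matrix. Transcripts of Mmp8, Mmp9 and Timp1 lay almost wholly outside them. Timp2 (82.5%) and Plau (86.8%) had shares in microglia-like cells close to that of all RNA, and Mmp14 (76.7%), Plaur (58.8%), Mmp12 (58.3%) and Adam8 (41.9%) had lower ones.

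**Figure D1:**
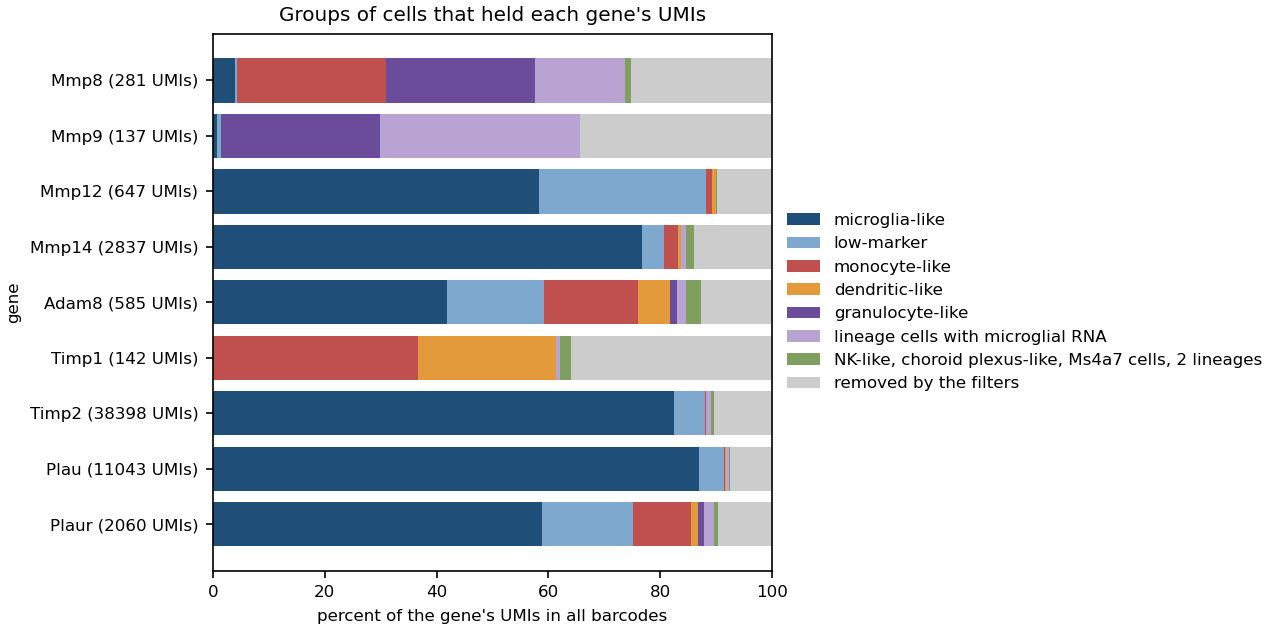
Share of the UMIs of each gene (percent, stacked bars) by group of cells, including barcodes that the filters removed; "Ms4a7 cells" are the 23 unnamed cells. Microglia-like cells held 83.6% of all UMIs, 82.5% of Timp2 and 86.8% of Plau UMIs, but 3.92% of Mmp8, 0.730% of Mmp9 and none of the Timp1 UMIs.

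**Figure D2:**
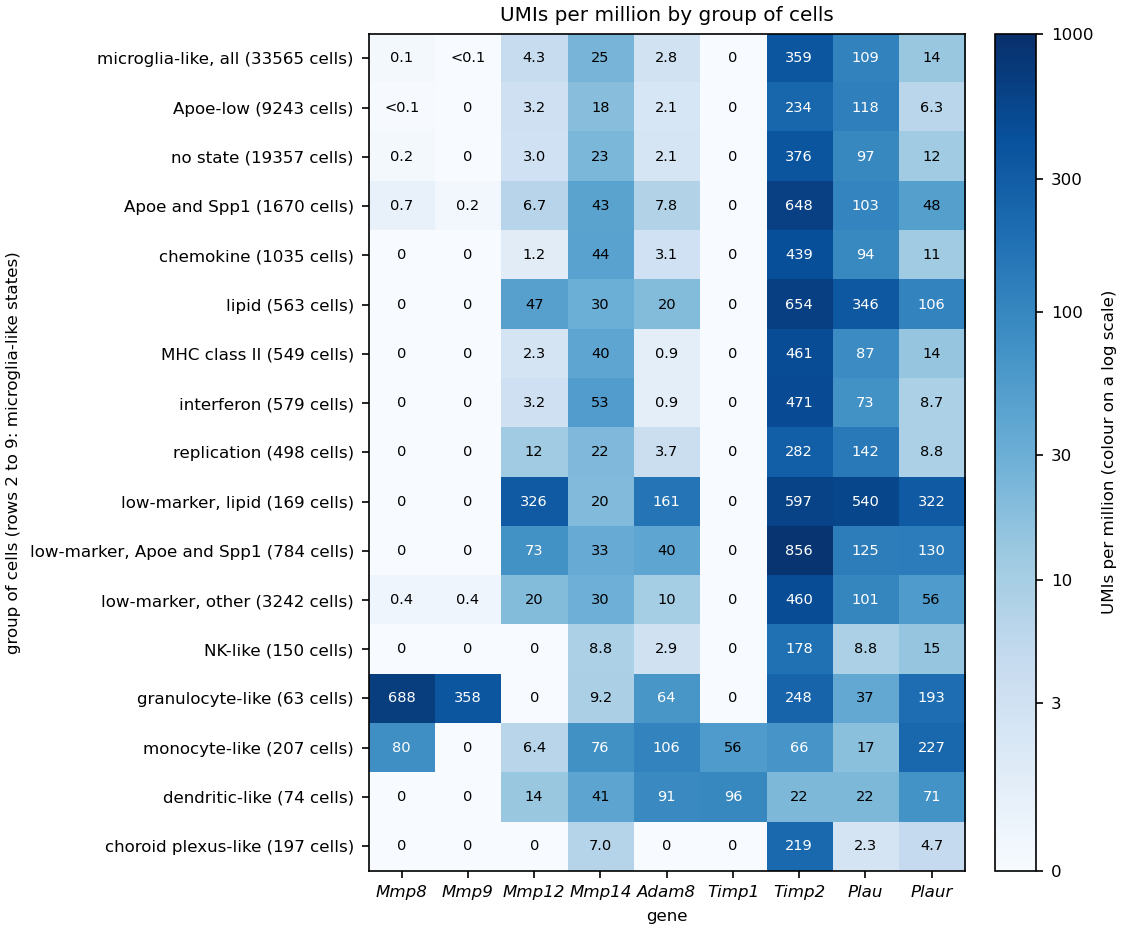
Level of each gene (columns) in each group of cells (rows, with the number of cells), in UMIs per 1000000 (CPM), printed in each field and shown by a color that follows a log scale from a pale 0. Mmp9 is seen chiefly in granulocyte-like cells and Timp1 in monocyte- and dendritic-like cells, while Mmp12 and Adam8 are highest in low-marker cells of the lipid state.

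The granule enzymes came first. Mmp8 reached 688 CPM (interval 542 to 863) in granulocyte-like cells, from 75 UMIs in 14 of the 63 cells, and 767 CPM in the unshared ones. It was strongly gathered, since 7 cells with 3 or more UMIs held 88.0% of the total and 1 cell held 20. The 6 suffixes contributed 20, 21, 8, 1, 20 and 5 UMIs from 4, 17, 4, 12, 6 and 20 cells, so that the number of cells and the number of UMIs did not go together. Microglia-like cells had 11 Mmp8 UMIs in 8 of 33565 cells (0.125 CPM).

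Monocyte-like cells also carried Mmp8, at 80.2 CPM (63.1 to 100.5) and with another distribution. Their 75 UMIs lay in 49 of 207 cells, and the cells with 3 or more held 21.3% of them. In the 3 suffixes with at least 20 such cells the level was 96.5, 53.0 and 77.5 CPM, each above microglia-like cells of the same suffix. The pooled ratio to microglia-like cells was 643 (interval 340 to 1343). None of the 74 dendritic-like cells held an Mmp8 UMI, which allows up to 8.24 CPM.

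Mmp9, the gelatinase, followed the granulocyte markers alone. Granulocyte-like cells held 39 UMIs in 19 of 63 cells, 358 CPM (255 to 489), and 416 CPM in the unshared ones. Suffixes 1 to 6 gave 8, 15, 2, 0, 3 and 11 of these UMIs. In the 207 monocyte-like cells 0 UMIs were found, which allows up to 3.21 CPM, and in the 33565 microglia-like cells there was 1. A further 49 Mmp9 UMIs, more than in the granulocyte-like group itself, lay in the 242 cells set aside for microglial RNA, and all 49 were in the 60 of these whose leading markers were those of granulocytes. The same 60 cells held 41 Mmp8 UMIs. With no limit on microglial RNA the granulocyte-like group had 239 CPM of Mmp9 and 315 CPM of Mmp8.

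Timp1, the inhibitor known to bind Mmp9 and its precursor, was found in other groups of cells than Mmp9. In monocyte-like cells it reached 55.6 CPM (41.5 to 72.9), from 52 UMIs in 16 cells, and in dendritic-like cells 96.2 CPM (67.0 to 134), from 35 UMIs in 14 cells. The 33565 microglia-like cells held none, nor did the granulocyte-like cells, where 0 UMIs allow up to 27.5 CPM. Set against the limit of 3 counts over all microglia-like cells, the pooled level was 1634 times that limit in monocyte-like and 2827 times in dendritic-like cells. These ratios leave out the counting intervals of the pooled levels, so they are not lower bounds. Suffix 6 had the larger part of both. In monocyte-like cells the suffixes with at least 20 cells gave 16.1, 44.2 and 102 CPM (suffixes 4, 5 and 6), and without suffix 6 the pooled level was 19.1 CPM. In dendritic-like cells suffix 4 gave 73.2 and suffix 6 gave 146 CPM, and without suffix 6 the level was 55.2 CPM.

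To set the members against the transcriptome, each gene of at least 20 CPM in either group was called higher or lower where the pooled levels differed at least 2-fold and every suffix with 20 cells of both groups had the same direction. In monocyte-like against microglia-like cells, 5 of the 7 members tested were higher (Mmp8, Timp1, Adam8, Plaur and Mmp14), where 19.3% of all tested genes were, and 2 (Timp2 and Plau) were lower, where 18.9% were. In dendritic-like cells 3 of 6 were higher (Timp1, Adam8 and Plaur), against 23.4% of genes, and Timp2 and Plau were again lower, against 21.1%. In granulocyte-like cells Mmp8, Mmp9, Plaur and Adam8 were higher, 4 of 7 against 13.9% of genes, and Plau and Mmp14 were lower, 2 of 7 against 41.5%. These lower calls rest on 4 Plau UMIs and 1 Mmp14 UMI. For the higher calls, suffix 6, the only suffix with 20 granulocyte-like cells, gave 1 Plaur UMI and 1 Adam8 UMI. The Mmp14 interval, 0.232 to 51.1 CPM, takes in the microglia-like level of 24.7 CPM. In NK-like cells none was higher, against 23.1% of genes, and all 3 tested were lower (Timp2, Plau and Mmp14), against 18%. Mmp14 had 3 UMIs there, and its interval of 1.81 to 25.6 CPM also takes in the microglia-like level. Apart from Mmp14 and Plau, members called higher here and in the comparisons of states had under 20 CPM in the microglia-like cells they were set against and entered the comparison only through the group where they were high, so their counts are a description and lend no support. Among unshared cells the same members passed for monocyte-, dendritic- and granulocyte-like cells, but no suffix then held 20 granulocyte-like cells, so that those calls rest on the pooled size alone, and 2 of 3 were lower in NK-like cells. Without suffix 6, Timp1 in monocyte-like cells was no longer tested, since its level was under 20 CPM, and Mmp14 in granulocyte-like cells was no longer called lower. In dendritic-like cells, where only 1 suffix with 20 cells then remains, leaving out suffix 4 also called Mmp12 and Mmp14 higher, and leaving out suffix 6 called Mmp14 lower. Timp2 in NK-like cells, at 0.496 of the microglia-like level, lost its call when suffix 1, 2, 5 or 6 was left out.

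**Figure D3:**
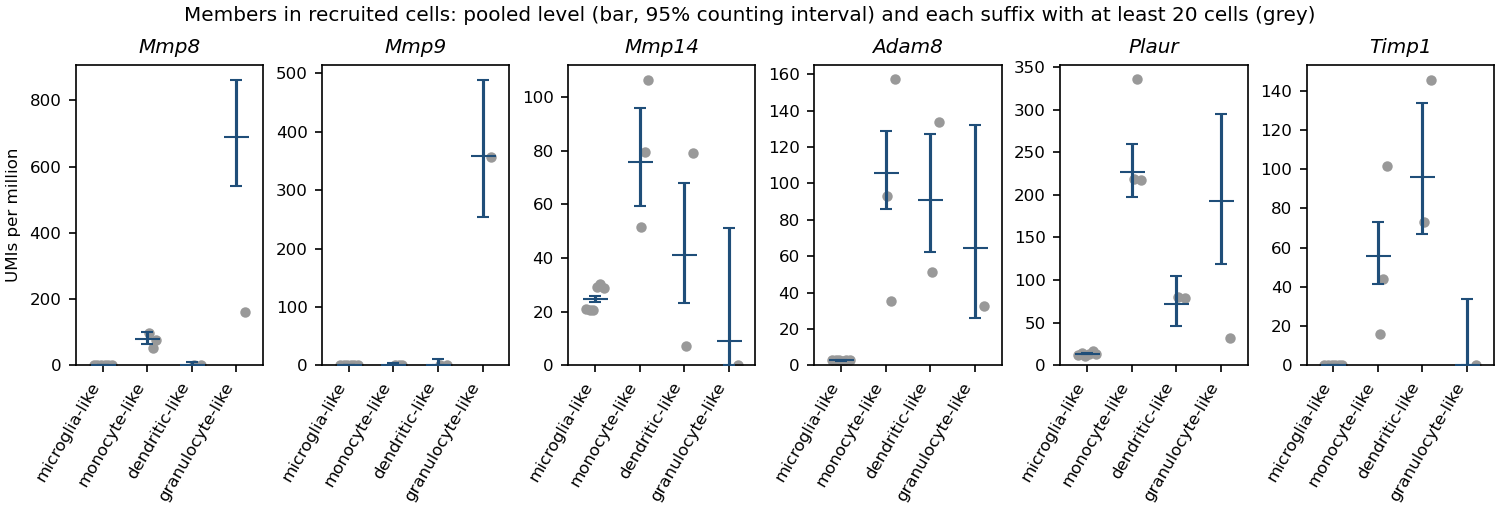
Level of 6 genes (panels, each with its own linear axis in CPM from 0) in microglia-, monocyte-, dendritic- and granulocyte-like cells. The horizontal mark is the pooled level with its 95% Poisson interval for counting error and the grey points are suffixes with at least 20 cells, which share barcodes and were not assigned to mice; Adam8 and Plaur are higher in all 3 recruited groups than in microglia-like cells, and Mmp9 is seen in granulocyte-like cells.

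Plaur, which holds urokinase at the cell surface, was at 227 CPM in monocyte-like cells (197 to 259), at 193 CPM in granulocyte-like cells (from 21 UMIs) and at 71.4 CPM in dendritic-like cells. Suffix 6, which held 20 of the granulocyte-like cells, gave 32.4 CPM there from 1 UMI. Microglia-like cells had 13.7 CPM (lowest suffix 10.6, median 13.1, highest 17.2). Monocyte-like cells of suffixes 4, 5 and 6 had 219, 336 and 218 CPM, far above that range. The ratio was 16.5 (14.2 to 19.1), and it was detected in 104 of the 207 cells. Its ligand Plau ran the other way, with 17.1 CPM in monocyte-like against 109 CPM in microglia-like cells, a level 6.36 times lower.

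Adam8, which sheds adhesion molecules and cytokine receptors from leukocytes, was at 106 CPM in monocyte-like and 90.7 CPM in dendritic-like cells against 2.78 CPM in microglia-like cells. Monocyte-like cells of suffixes 4, 5 and 6 gave 93.3, 35.4 and 157 CPM. The ratio was 38.1 (29.9 to 48.3), and without suffix 6 the level was 65.1 CPM in monocyte-like and 55.2 CPM in dendritic-like cells. Granulocyte-like cells had 7 Adam8 UMIs, in 7 different cells (64.3 CPM). In microglia-like cells Adam8 was nearly the same under every suffix, from 2.53 to 3.13 CPM.

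Mmp14, the membrane-bound enzyme, was present in both compartments. Monocyte-like cells had 75.9 CPM and microglia-like cells 24.7 CPM (lowest suffix 20.5, median 24.9, highest 30.2), a ratio of 3.08 (2.39 to 3.90). Without suffix 6 the monocyte-like level was 51.7 CPM, still above the 6 suffix values of all microglia-like cells. Of the microglia-like states described below, the interferon state alone was above that level, at 53.2 CPM over all suffixes. Among unshared cells the monocyte-like level was 71.0 CPM. The 102 unshared low-marker cells with Apoe and Spp1 had 75.7 CPM, from few UMIs, 7 of them in suffix 6. At full depth 19.8% of monocyte-like cells (median 4573 UMIs) and 5.85% of microglia-like cells (median 2640 UMIs) had a UMI. Among the 206 and 27772 of them with at least 1000 UMIs, thinned to that number, 6.31% and 2.38% did. The 23 unnamed cells led by Ms4a7 had 13 Mmp14 UMIs, 136 CPM, and 82.7 CPM without suffix 6.

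Timp2 and Plau were detected in more microglia-like cells than the other members. Timp2, which inhibits the metalloproteinases and also takes part in pro-Mmp2 activation, was at 359 CPM in microglia-like cells (lowest suffix 280, median 355, highest 402), and 51.9% of them had a UMI. It was 5.42 times lower in monocyte-like cells (66.3 CPM) and 16.3 times lower in dendritic-like cells (22.0 CPM). Plau was at 109 CPM in microglia-like cells (lowest suffix 96.3, median 104, highest 119), with a UMI in 20.6% of cells. It was at 8.77 CPM in NK-like and 2.33 CPM in choroid plexus-like cells.

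Free RNA from the many microglia can give UMIs in other cells, and the 6 microglial marker genes were taken as a rough gauge of it. Per 100 UMIs of those 6 genes, microglia-like cells had 0.794 Plau UMIs, and NK-like and choroid plexus-like cells had 0.504 and 0.781, from 3 UMIs and 1 UMI. Monocyte-like (2.07), granulocyte-like (2.35) and dendritic-like cells (3.16) had higher Plau values, from only 16, 4 and 8 UMIs. For Timp2 the microglia-like value was 2.62, dendritic-like cells had 3.16, monocyte-like cells 8.00, NK-like cells 10.3, granulocyte-like cells 15.9 and choroid plexus-like cells 73.4. Apart from dendritic-like cells, these groups were well above the microglia-like value for Timp2. Their gates admit only cells with under 0.5% of UMIs on the 6 genes, which limits the lower part of the ratio. Low-marker cells had 20.7 Timp2 UMIs per 100 in the lipid state, 23.3 with Apoe and Spp1, and 6.87 in the rest. Whether Timp2 or Plau outside microglia-like cells was free RNA was not tested. For Plaur the same ratio was 0.10 in microglia-like and 27.4 in monocyte-like cells.

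Among the microglia, the clearest pattern was in cells of the lipid state, defined by at least 3 of Lpl, Fam20c, Fabp5 and Ccl3, genes of lipid uptake and of activated microglia. Of the 5 members tested in these 563 cells, 3 were called higher than in the other microglia-like cells (Mmp12, Plaur and Plau), where 2.36% of all tested genes were. Mmp12 and Plaur were tested only through their level in the lipid state, so their part of the count is a description. The same 3 were called among unshared cells and whichever suffix was left out.

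Mmp12, the elastase, was at 47.0 CPM (37.7 to 57.8) in the lipid state against 3.35 CPM in the other microglia-like cells, a ratio of 14.0 (10.9 to 17.9). By suffix it ran from 11.6 through a median of 48.5 to 77.1 CPM, and no suffix of all microglia-like cells exceeded 5.35 CPM. The unshared cells had 27.9 CPM, a ratio of 8.76. Detection was sparse, with 88 UMIs in 39 cells, 10 of which had 3 or more. Even so, lipid-state cells, 563 of the 33565 microglia-like cells, held 88 of the 377 Mmp12 UMIs of microglia-like cells.

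Plau was at 346 CPM in the lipid state against 104 CPM in the other microglia-like cells, a ratio of 3.34 (3.08 to 3.62). Of its 649 UMIs there, 73.2% lay in 51 cells with 3 or more, and 1 cell held 37. The suffixes gave a lowest value of 177, a median of 363 and a highest of 762 CPM, all above the highest suffix of all microglia-like cells. Its receptor moved further, with Plaur at 106 CPM against 11.7 CPM, a ratio of 9.0 (7.69 to 10.5), and a range over suffixes from 81.3 to 161 CPM. Among unshared cells the ratios were 3.51 for Plau and 13.9 for Plaur. Adam8 stood at 19.7 CPM in the lipid state (13.9 CPM unshared), under the 20 CPM needed for a call, against 2.41 CPM, and was higher in 6 of 6 suffixes. It was called when suffix 1, 4 or 6 was left out. Timp2 was 1.85 times higher, 654 against 353 CPM and in 6 of 6 suffixes, which is short of the 2-fold limit, and Mmp14 was 1.22 times higher.

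**Figure D4:**
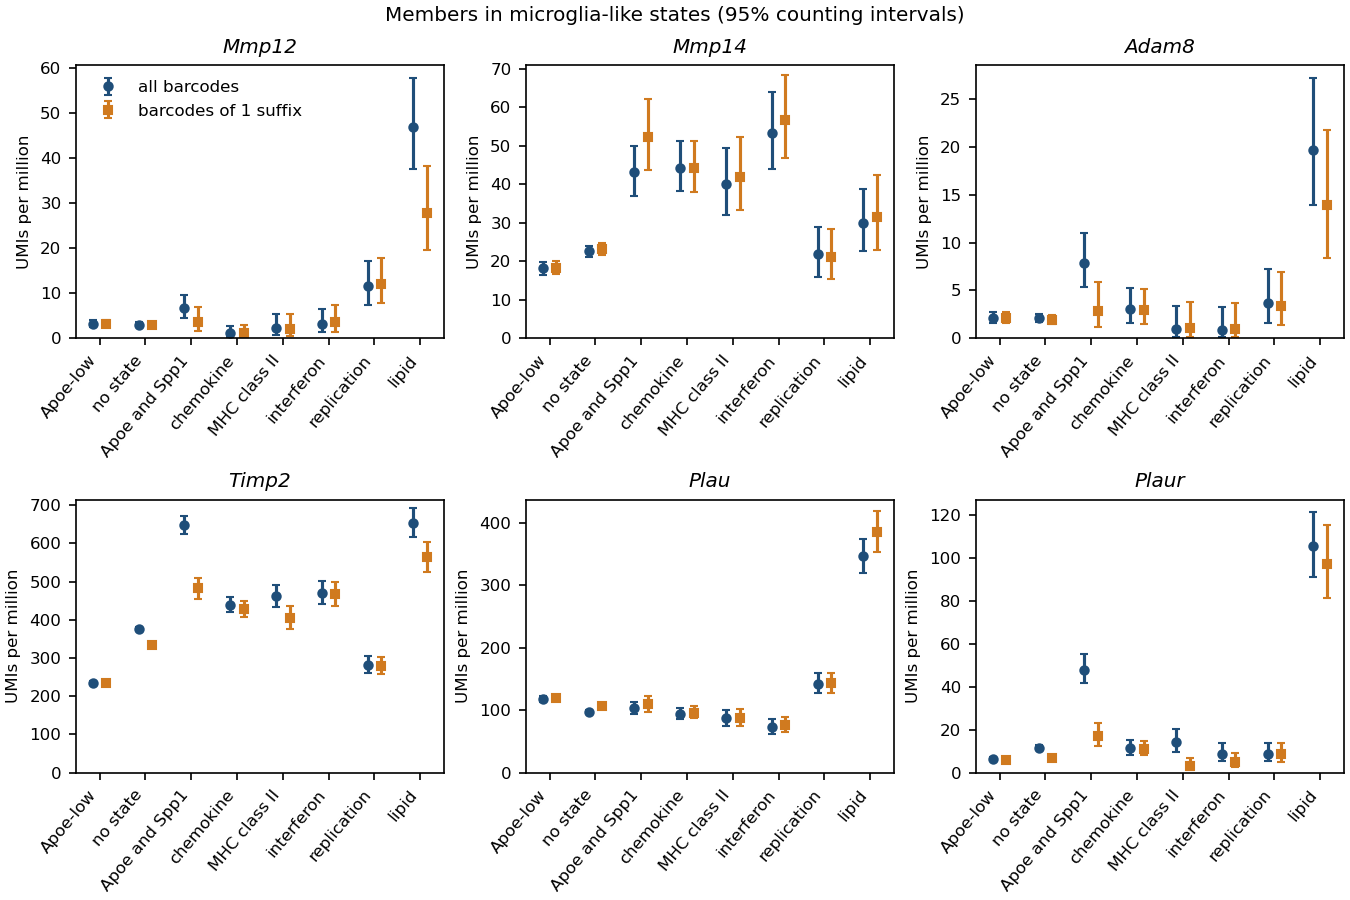
Level of 6 genes (panels, each with its own linear axis in CPM from 0) across microglia-like states, for all cells (circles) and for cells whose barcode sequence occurs under 1 suffix (squares), with 95% Poisson intervals for counting error. Mmp12, Plau, Plaur and Adam8 stand highest in the lipid state with either set of cells. Mmp14 stands highest in the interferon state, where its interval overlaps those of other states.

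The other states moved fewer members. In cells with Apoe at 1% or more of UMIs together with Spp1, Plaur alone of 4 tested was called higher, where 1.5% of all genes were. It was at 48.0 against 12.0 CPM, and it was tested only through its level there, so the call is a description. That call did not hold among unshared cells, where Plaur was at 17.0 CPM and so under the limit for testing, and where Mmp14 was called instead, at 52.3 CPM and 2.16 times the other cells. In the interferon state, defined by Ifit2, Ifit3, Isg15 and related genes, Mmp14 alone of 3 tested was called, where 2.95% of genes were. It was at 53.2 CPM (44.0 to 63.9) against 24.0 CPM, a ratio of 2.22 (2.33 unshared), and higher in 6 of 6 suffixes. Over all cells Mmp14 was also 1.81 times higher with Apoe and Spp1, in 6 of 6 suffixes. In the MHC class II state (Cd74 and class II genes) it was 1.65 times higher, in 5 of 5. Both are short of the 2-fold limit. In Apoe-low and replicating cells Mmp14 was at 0.665 and 0.880 of the other microglia-like cells.

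In the chemokine state (Ccl2, Ccl12 and Ifitm3) 0 of 3 tested members passed the limits, where 0.84% of genes did; with a single pooled sample this is a count of sizes and no test. Mmp14 was 1.87 times higher there, at 44.3 CPM and in 5 of 6 suffixes. Apoe-low cells, with Apoe under 0.2% of UMIs, had the lowest Timp2 of the larger microglial groups, 234 CPM against 409 CPM in the other microglia-like cells, and lower in all 6 suffixes, yet Plau was 118 CPM in them, 1.12 times the rest. In replicating cells Mmp12 was at 11.6 CPM, but all 25 of its UMIs came from 4 of 498 cells, and without suffix 6 the level was 6.10 CPM.

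Mmp12, Plau, Plaur and Adam8 were higher still in the 169 cells with lipid-state genes but fewer than 4 microglial genes. These cells are shallow, with a median of 1261 UMIs, and 146 of them share their sequence with another suffix. Against microglia-like cells, 4 of 6 members tested were called higher, where 6.25% of genes were. Mmp12, Plaur and Adam8 had under 20 CPM in microglia-like cells and were tested only through their level here. Their part of the count is therefore a description and lends no support. Mmp12 was at 326.5 CPM (259 to 406), Plau at 540 CPM, Plaur at 322.5 CPM and Adam8 at 161 CPM. The ratios to microglia-like cells were 76.4 for Mmp12, 58.1 for Adam8, 23.5 for Plaur and 4.97 for Plau.

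Part of this rests on few cells. Mmp12 came from 81 UMIs in 17 cells, 1 of which held 37, and without suffix 2 its level was 168 CPM. In the 23 unshared cells of the group Mmp12 was at 853 CPM, Plau at 1034 CPM, Plaur at 279 CPM and Adam8 at 131 CPM, from 52, 63, 17 and 8 UMIs. Of the 52 Mmp12 UMIs, 43 came from 7 cells of suffix 2 and 8 from 1 cell of suffix 1. The unshared cells of suffixes 4, 5 and 6 held 0, so 853 CPM is the level of very few cells. Over the 5 suffixes with at least 20 cells Adam8 ran from 120 to 203 CPM. Most cells of the group share their sequence with another suffix, so these values are not independent. All 8 unshared Adam8 UMIs came from suffix 2. Of the low-marker cells, those with Apoe and Spp1 (784 cells) had the highest Timp2 of any group, 856 CPM, but the unshared ones among them had 385 CPM, below the unshared lipid-state microglia at 564 CPM.

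Cells with shared and with unshared barcode sequences differed in the members. Within the microglia-like cells, those with a shared sequence (10697 cells, median 1008 UMIs) had 40.9 CPM of Plaur against 8.67 CPM in the unshared (22868 cells, median 3129 UMIs), 4.72 times as much. Adam8 was 2.46 times, Mmp12 2.13 times and Timp2 1.79 times higher in shared cells, each in 6 of 6 suffixes. Plau went the opposite way, with 74.9 against 115 CPM and lower in 6 of 6 suffixes, and Mmp14 differed little (21.9 against 25.2 CPM). A shared sequence recurs under several suffixes, so the suffixes are not independent repeats of these differences. Low-marker cells showed another pattern, in which Timp2 was 2.02 times higher in shared cells. Pooled Mmp12 and Plau were at 0.517 and 0.401 of the unshared level. By suffix, however, Mmp12 was higher in shared cells in 4 of 6, and Plau in 1 of 6. Of the 61 unshared Mmp12 UMIs, 43 lay in 7 lipid-state cells of suffix 2. Plaur and Adam8 were at 1.10 and 1.09, higher in 3 of 6 suffixes. In microglia-like cells genes outside the set differed too: Apoe was at 34469 against 9570 CPM and Spp1 4.40 times higher in shared cells, P2ry12 was at 0.652 of the unshared level, and Fos at 1.02. The part of sharing and depth in the pattern over states was not tested beyond the unshared values, which are given with some of the results only.

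**Figure D5:**
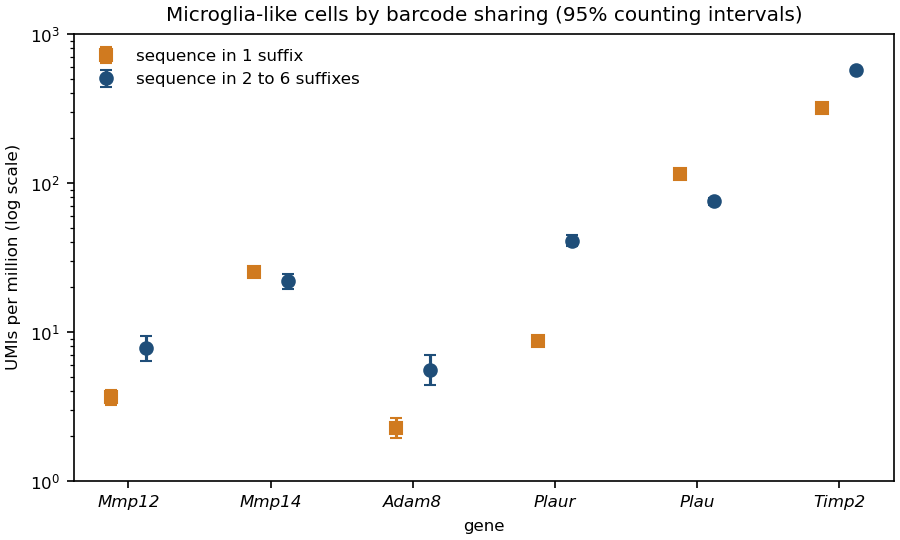
Level of 6 genes in microglia-like cells whose barcode sequence occurs under 1 suffix (squares) or under 2 to 6 suffixes (circles), in CPM on a log axis with 95% Poisson intervals. Plaur, Adam8, Mmp12 and Timp2 are higher in the shared cells, Plau is lower.

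Pairs known to act together were then looked for in single cells with at least 1000 UMIs, each thinned to that number. Plau and Plaur, activator and receptor, were both found in 22 of 545 lipid-state cells (4.04%, interval 2.55 to 6.05%). Among the lipid-state cells with Plau 22.7% also had Plaur, and among those without it 8.71% did. Over all microglia-like cells 72 of 27772 held both. Mmp8 and Mmp9 were together in 7 of 32 granulocyte-like cells, and Mmp9 was found in 70.0% of the cells with Mmp8 but in 18.2% of those without. Mmp14 and Timp2 showed no such difference in microglia-like cells, where 28.3% of cells with Mmp14 and 28.5% of those without had Timp2. These counts are sparse and describe detection only.

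The remaining enzymes, inhibitors and receptors of the system were read from a list of 44 genes. Of these, 7 had 0 UMIs, among them Plg, which encodes plasminogen, and 15 had 1 to 20 UMIs; 18 reached 20 CPM in a group. In monocyte-like cells 4 were higher than in microglia-like cells (Anxa2, S100a10, Prtn3 and Mmp19), 6 were lower and 5 of those tested were neither, where 19.3% of all genes were higher and 18.9% lower. The 4 higher genes had under 20 CPM in microglia-like cells and were tested only through their level in monocyte-like cells. Their count is therefore a description and lends no support. Anxa2 and S100a10 form the annexin complex that binds plasminogen at the cell surface. Anxa2 was at 1139 CPM in monocyte-like, 1135 in dendritic-like, 777 in NK-like and 799 CPM in granulocyte-like cells. S100a10 was at 823, 1022, 906 and 0 CPM in the same groups. Microglia-like cells had 2.03 CPM of Anxa2 and 4.78 CPM of S100a10. The plasminogen receptor gene Plgrkt went the other way, with 113 CPM in microglia-like and 54.5 CPM in monocyte-like cells, where it was called lower. It was at 63.2 CPM in dendritic-like, 111 CPM in NK-like and 36.7 CPM in granulocyte-like cells, the last from 4 UMIs. In the lipid state none of the 11 context genes tested passed the limits in either direction, where 2.36% of all genes were higher and 1.01% lower.

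Other genes of the list belonged to the microglia or to the choroid plexus. Adamts1, a secreted protease of proteoglycans, was at 2117 CPM in microglia-like and 114 CPM in monocyte-like cells. Serpine2, an inhibitor of serine proteases, was at 376 CPM in microglia-like cells. Bsg, the metalloproteinase inducer basigin, was at 579 CPM in microglia-like and 3266 CPM in choroid plexus-like cells, and A2m, a general protease inhibitor, was highest in choroid plexus-like cells at 63.0 CPM.

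Likeness of pattern was measured by Pearson's r of log2(CPM + 10) over 81 points, each a group of cells under 1 suffix, with 5877 genes compared. The points share barcodes and depth, so r is a description. Mmp9 was most like Lcn2 (0.985), Wfdc21 and Ngp, and Timp1 most like Cd209a (0.974), Dmkn and Dpp4; Lcn2, Wfdc21, Ngp and Cd209a are gate markers. Mmp8 was most like Slfn1 (0.900), Hp and Cd177, and Mmp12 most like Rab7b (0.802), Lyzl4 and Lpl. Hp and Lpl are gate markers too, of monocyte-like cells and of the lipid state. A likeness to a gate marker lends no independent support, since the groups were built with it. Plaur and Adam8 were among each other's 3 closest genes (0.818), beside Msr1 and Ank for Plaur and Capg and Itga5 for Adam8. Timp2 was most like Cd63 (0.911), Ctsd and Ctsl, genes of lysosomes, Plau most like Rnf121 (0.864), Cadm1 and Mfsd12, and Mmp14 had the weakest likeness, with Camkk2 (0.624), Fcgr2b and Susd6.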

How the data were processed

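CD45+ cells of 6 mice were profiled with 10x Chromium 3′ v2 libraries. The authors aligned reads to mm10 and counted UMIs with Cell Ranger 3.1.0, then aggregated the 6 libraries; the matrix deposited by the authors holds raw UMI counts per gene and barcode, with no batch correction. Sequencing was done in 3 batches, which barcodes do not name. The annotation release and any equalizing of depth are not given in the sources used here. No value column was set aside (0 columns). Suffixes 1 to 6 were not assigned to mice: the labels hold no map, and pairing them by library size with the per-library metrics that the study lists by group would be an inference and was not used. No doublet caller was run; cells with markers of 2 lineages were set apart.

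Counts were summed per group in Python 3.11.15 (numpy 2.4.6, scipy 1.17.1, pandas 2.3.3, matplotlib 3.10.9) and divided by the UMIs of the group. Exact Poisson and exact binomial (Clopper-Pearson) intervals are at 95%, and a count of 0 allows up to 3 counts. Precision follows depth, 9745192 to 24393841 UMIs per suffix. Shares were also computed after thinning to 1000 UMIs, with cells below that number left out. The microglial genes were Tmem119, Gpr34, Olfml3, P2ry12, Cx3cr1 and Selplg. A state other than Apoe and Spp1 needed 3 of its genes. A gene was called where pooled CPM differed at least 2-fold, 1 group had at least 20 CPM, and each suffix with 20 cells of both groups had the same direction. Named genes were the 9 members, up to 12 context genes with the highest CPM (Prtn3, Mmp19 and Plg were named after their values were seen, and 1 gene is not reported here) and, per member, the 3 genes with the highest Pearson r among genes of at least 50 CPM. Members, marker lists and gates were chosen with earlier results of these data known, and the limit of 0.5% on microglial RNA was set after marker levels were seen. The calculations were tested on simulated data. Those were independent Poisson counts for genes of at least 50 CPM, with changes larger than the 2-fold limit. They held no counts shared between suffixes and none gathered in few cells, so they do not test how the calls and intervals behave with either. Alternatives were other filters, gates and states, each suffix left out, unshared barcodes only, and each barcode sequence once.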

Additional observations from a re-analysis of the deposited data

Results flagged for a closer look

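Of 63 sets of suffix levels tested, 8 had 1 suffix far from the others by Dixon's test at 95%. Chance gives this in about 1 set in 20 only for independent values of equal precision. Here the suffixes share barcodes, were not assigned to mice and rest on unlike numbers of UMIs. The 8 flags are therefore descriptions and cannot be set against that rate. In the lipid state Mmp14 was lowest in suffix 1, at 21.0 CPM from 6 UMIs, and Plaur was highest in the same suffix, at 161 CPM. In MHC class II-state microglia Mmp14 was highest in suffix 5, at 82.9 CPM from 11 UMIs. In microglia-like cells with Apoe and Spp1, suffix 3, with 64 cells, had both the lowest Plau (47.2 CPM, 4 UMIs) and the highest Plaur (177 CPM, 15 UMIs; the others 33.9 to 55.7 CPM). In low-marker cells with Apoe and Spp1, suffix 5 had the lowest Timp2 (651 CPM, the others 882 to 949 CPM) and the highest Plau (191 CPM). In the chemokine state Plau was highest in suffix 2, at 139 CPM.

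Barcodes that the filters removed also held the members. They had 51 of 142 Timp1 UMIs, 47 of 137 Mmp9 UMIs and 71 of 281 Mmp8 UMIs, which is 35.9%, 34.3% and 25.3%, while 9.52% of all UMIs of the matrix lay in these barcodes. The other members had 64 (Mmp12), 394 (Mmp14), 4018 (Timp2), 835 (Plau), 198 (Plaur) and 74 (Adam8) UMIs there. The levels of Timp1, Mmp9 and Mmp8 given above leave out these cells, most of which had over 2500 genes or 5% or more mitochondrial UMIs.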

How the results depend on the processing

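No paired analysis was possible because no label gives a barcode suffix a replicate number. Apart from the flags by Dixon's test, no result comes from a test. Of the levels of each gene in its highest group, 82 of 99 values under other settings moved by less than their counting interval. Some settings left a value identical, as the limits on microglial RNA did for the low-marker groups. The 82 therefore include values that could not move, and their share is no measure of robustness. Mmp12 in low-marker lipid-state cells was 1675 CPM with stricter states (10 cells), 240 CPM as the median over suffixes, 853 CPM with unshared barcodes, 525 CPM with each sequence once, and 168 to 390 CPM with 1 suffix left out. Plau in the same cells was 1278 CPM with stricter states, 1034 CPM unshared and 674 CPM with each sequence once, and Plaur was 485 CPM with stricter states. Timp2 in low-marker cells with Apoe and Spp1 was 927 CPM at 1000 or more UMIs per cell, 793 CPM with 1 marker more, 794 CPM with stricter states, 385 CPM unshared and 647 CPM with each sequence once. Mmp8 in granulocyte-like cells was 897 CPM with a stricter limit on microglial RNA, 315 CPM with none, 162 CPM as the median over suffixes (1 suffix), and 546 to 896 CPM with 1 left out, and Mmp9 was 239 CPM with no limit. With 1 suffix left out, Timp1 in dendritic-like cells was 55.2 to 110 CPM and Mmp14 in monocyte-like cells 51.7 to 88.1 CPM. Thinning took the share of cells with Mmp14 to 6.31%, with Timp1 to 8.11% and with Timp2 to 59.2%. Cells under 1000 UMIs are left out of these shares, for Timp2 456 of the 784 cells. Members called higher were 5 with stricter lipid states, and 3 to 4 there and 4 to 5 in monocyte-like cells with 1 suffix left out. Beyond cells lost by construction, the cause was not tested. Unshared barcodes and single sequences were tried after seeing the data.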
